A study of Homo sapiens with 2 samples.

Results

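Peaks of TCF12 ChIP-seq reads were examined around the transcription start sites (TSSs) of 5 genes, CDH1, CDH2, SNAI1, SNAI2 and FGF2. The study followed the products of CDH1, CDH2, SNAI1 and SNAI2 as markers of the epithelial-mesenchymal transition (EMT). It followed FGF2 as an angiogenic factor. The loci were defined by gene and not by a peak value, but they were chosen with earlier results of these data known. Each locus is the stretch within 50 kb of the TSS on both sides. A listed peak belonged to it when at least 1 bp fell inside. In all, 16 of the 64251 peaks in the deposited table belonged to the 5 loci. The cells were Hep3B, a human hepatocellular carcinoma line, so the data describe 1 cell line. The sample titles name no modification or treatment of the cells. A TCF12 antibody was used for the ChIP library, the input library was made without antibody, and with 1 library of each there was no replicate check on any peak. Of 10825129 ChIP tags and 9664416 input tags, MACS kept 10254561 and 8862145. The TSSs, on the human build hg19, were base 48599513 of chromosome 20 for SNAI1, base 49833999 of chromosome 8 for SNAI2, base 68771195 of chromosome 16 for CDH1, base 25757445 of chromosome 18 for CDH2 and base 123747863 of chromosome 4 for FGF2. SNAI2 and CDH2 are transcribed from the minus strand, and the other members from the plus strand. These positions came with the list of loci, and an annotation of hg19 was not used here to check them or to place peaks in exons and introns.

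During EMT, epithelial cells give up the junctions that hold them to their neighbours and become motile. E-cadherin, the product of CDH1, holds epithelial cells together, while N-cadherin, the product of CDH2, is typical of mesenchymal and neural cells. Snail (SNAI1) and Slug (SNAI2) are zinc finger repressors that act on E-box sequences, among others in the promoter of CDH1. FGF2 encodes basic fibroblast growth factor, a secreted growth factor that acts on endothelial cells. TCF12 is an E protein, a basic helix-loop-helix factor that binds the E-box CANNTG as a dimer. The study followed these proteins or their transcripts in cells with more or less TCF12. The question put to the peak table here was whether TCF12 ChIP reads were enriched near the start sites of the same genes in Hep3B cells.

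RefSeq promoter sequences on GRCh38.p14 were at hand for FGF2 and CDH2, and the 100 bases directly upstream of the first annotated start of each gene are shown because no peak was listed near the TSS of these genes. Capitals mark CG dinucleotides.
FGF2, chr4:122826582-122826681, plus strand: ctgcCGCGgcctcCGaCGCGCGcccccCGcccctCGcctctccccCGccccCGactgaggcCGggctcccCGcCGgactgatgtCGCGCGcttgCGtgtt
CDH2, chr18:28177131-28177230, minus strand: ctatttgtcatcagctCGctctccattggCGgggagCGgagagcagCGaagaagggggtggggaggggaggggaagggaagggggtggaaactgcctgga
The FGF2 stretch holds 17 CG dinucleotides and 80.0% G and C, and the CDH2 stretch holds 4 and 63.0%. The letters CANNTG, which read the same on both strands and include the E-boxes CAGCTG and CAGGTG, were then searched over the first 250 bases of each RefSeq entry, upstream of the start on which the entry is built. For CDH2 that start is the first annotated one and the stretch shown is the last 100 of these bases. For FGF2 the entry is built on a start further downstream, so the stretch shown lies at the far end of the searched bases, and the part of the promoter searched is not the same as for CDH2. They were found 0 times for FGF2 and 0 times for this start of CDH2. A second RefSeq start of CDH2 had 1 match, CAGATG. Of all 35116 promoter entries, 61.8% held CANNTG in these 250 bases, 14.0% held CAGCTG and 17.5% held CAGGTG or its reverse complement. The RefSeq starts are on another build and may not be the same bases as the TSSs used for the peaks.

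A listed peak lay within 50 kb of all 5 TSSs, but within 5 kb only at SNAI1 and SNAI2. No peak spanned a TSS. The strongest of the 16 peaks was just upstream of SNAI2, with 9 ChIP reads at its summit. CDH1, CDH2 and FGF2 had no listed peak within 13 kb of the TSS. A peak somewhere in the window was common on these chromosomes: at least 1 peak overlapped 88.1% of the windows of the same size (100001 bp) tiled along chromosome 20, 68.9% on chromosome 8, 69.3% on chromosome 16, 52.2% on chromosome 18 and 59.9% on chromosome 4. The count of 5 genes out of 5 is read against these shares. Within windows of 5 kb on each side, the shares were 29.9%, 15%, 18.1%, 10.1% and 12.6% in the same order.

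**Figure D1:**
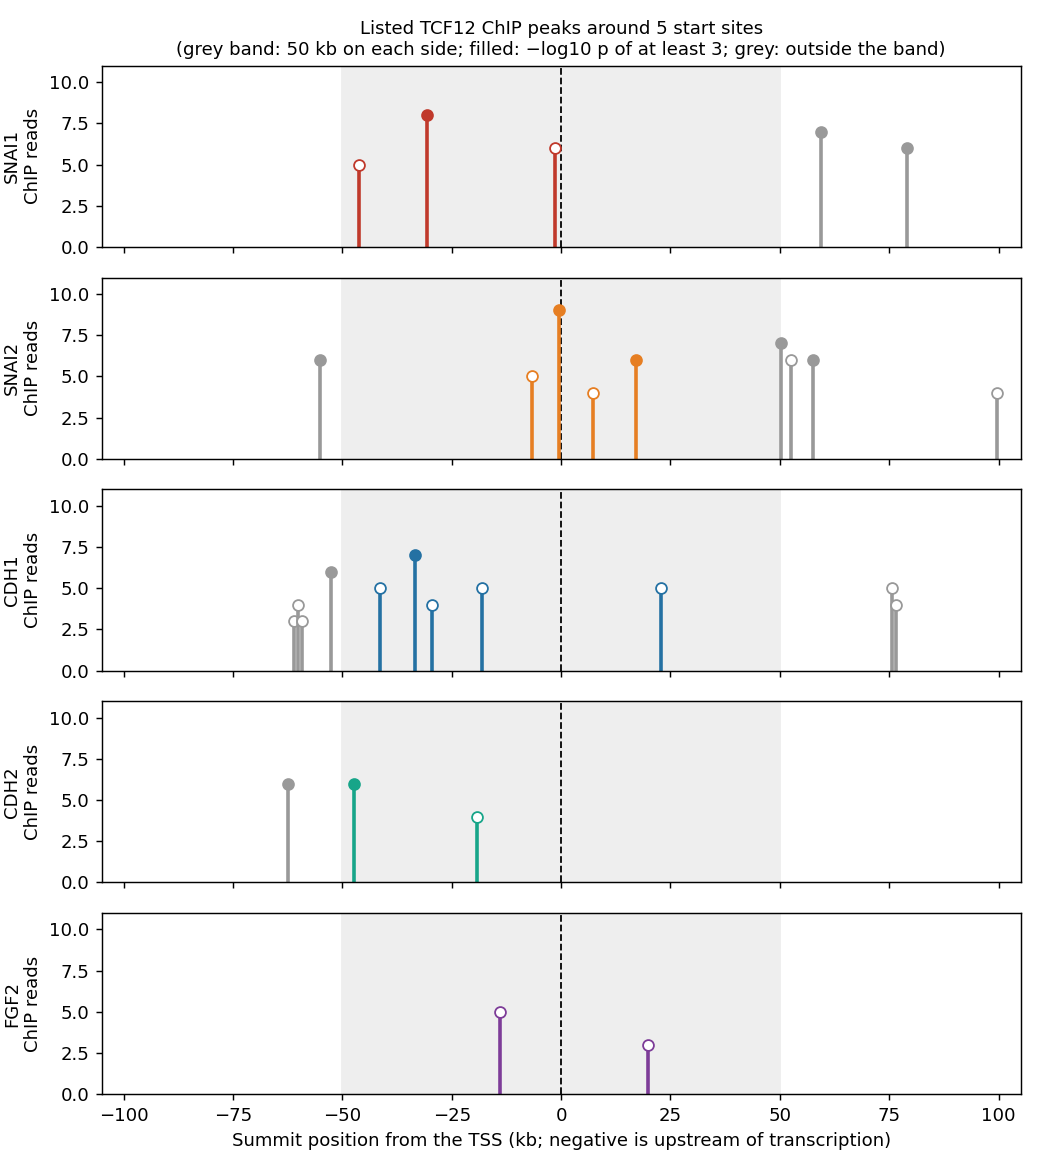
Listed peaks within 100 kb of each TSS, with the summit position in kb from the TSS in the direction of transcription on the x axis and the ChIP reads at the summit on the y axis. The peak with 9 reads sits next to the SNAI2 TSS, a peak with 6 reads lies just upstream of SNAI1, and the bands of CDH1, CDH2 and FGF2 are empty around the TSS.

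Few reads lay behind each of the 16 peaks. The reads at the summit ranged from 3 to 9 with a median of 5, which is also the median of all 64251 listed peaks. The authors' fold enrichment, the ratio of the scaled reads to the background with 1 added to both, ranged from 2.04 to 4.39. The −log10 p of MACS, which compares the ChIP reads with the background of this pair of libraries and is no test between conditions, had a median of 2.86 against 2.34 over all listed peaks. It was at least 3 for 5 of the 16 peaks (31.2%), beside 18.7% of all listed peaks. A q of 1 was given to all 16, as it was to 64029 peaks of the table. The exact 95% Poisson interval of the reads, scaled to the input library, lay above the background for 15 of the 16 peaks. The exception was the FGF2 peak with 3 reads. These intervals cover counting error only. All 16 peaks were listed because they had passed the MACS p cutoff against this same background. The 15 of 16 are therefore no separate sign of enrichment, and the share over all listed peaks was not determined.

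At SNAI2, which encodes Slug, 4 peaks lay within 50 kb. The peak nearest to the TSS ran from 49834423 to 49834714 on chromosome 8 of hg19, was 292 bp long and ended 424 bp upstream of the TSS, with its summit 562 bp upstream (the summit is base 49834561). It held 9 ChIP reads at the summit (exact 95% Poisson interval 4.12 to 17.1), or 7.78 after scaling to the input library. The background was 1.00, which is 1 input read over the summit. The fold enrichment was 4.39 and the −log10 p 4.99. By −log10 p it stood at place 9 of the 2567 listed peaks of chromosome 8 and at place 321 of the whole table, ties included (0.500%). These places hung on 1 read: with 1 read fewer the −log10 p would be 4.08. A listed peak of that value stood at place 98 of the chromosome and at place 2946 of the whole table. A peak at least as strong, this one included, overlapped 9 of the 14618 windows of 5 kb on each side on chromosome 8 (0.0616%). A peak of any strength overlapped 15% of the same windows. The threshold for the smaller share was this peak's own value, and the share at 1 read fewer was not determined. The windows tile the chromosome, assembly gaps included, and are not start sites.

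The other 3 peaks of SNAI2 flanked this one. A peak 6525 bp upstream had 5 reads and a −log10 p of 2.94. On the transcribed side, 4 reads lay 7070 bp from the TSS with a −log10 p of 2.11, and 6 reads lay 17005 bp away with a −log10 p of 3.23. The Poisson intervals of all 4 peaks overlap. Whether their reads at the summit differ beyond counting error was not tested. Just outside the locus, a peak with 7 reads and a −log10 p of 4.08 began 50176 bp downstream and was followed by peaks at 52323 and 57368 bp with 6 reads each. Windows on chromosome 8 held 1.76 peaks on average, and 16.8% of them held at least 4. Within 5 Mb of the TSS the average was 1.94, and 20.0% held at least 4.

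SNAI1, which encodes Snail, had 3 peaks within 50 kb, all upstream of its TSS. The nearest ran from 48597936 to 48598143 on chromosome 20 of hg19, 1370 bp upstream of the TSS at its closer edge and 1472 bp at its summit. It had 6 reads (interval 2.20 to 13.1), or 5.19 after scaling, against a background of 1.22, with a fold enrichment of 2.78 and a −log10 p of 2.78. A peak at least as strong, this one included, overlapped 12.9% of the windows of 5 kb on each side on chromosome 20. The strongest peak of the locus lay 30555 bp upstream, with 8 reads (interval 3.45 to 15.8), a background of 1.27 and a −log10 p of 3.45. The remaining peak lay 46082 bp upstream with 5 reads and a −log10 p of 2.35.

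The input was high around SNAI1. The background of its 3 peaks came from the number of input reads in the 10000 bp around each, which was 76 at the nearest peak, 79 at the strongest and 65 at the remaining one. Such a window sets the background only where it exceeds the genome-wide level, which corresponds to 47.4 input reads per 10000 bp at the genome size the authors used. The average at this depth is 32.8 input reads per 10000 bp if the reads are spread over 2700000000 bp, the genome size preset of MACS for human. Peaks were dense there as well, with 60.5 per Mb within 1 Mb of the TSS on both sides against 39.7 per Mb over chromosome 20. The part of the high input in the peak count was not tested. The 3 peaks of SNAI1 were fewer than the 3.98 that windows on the chromosome held on average, and 59.2% of these windows held at least 3. Within 5 Mb of the TSS the average was 5.14, and 80.0% of windows held at least 3.

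**Figure D2:**
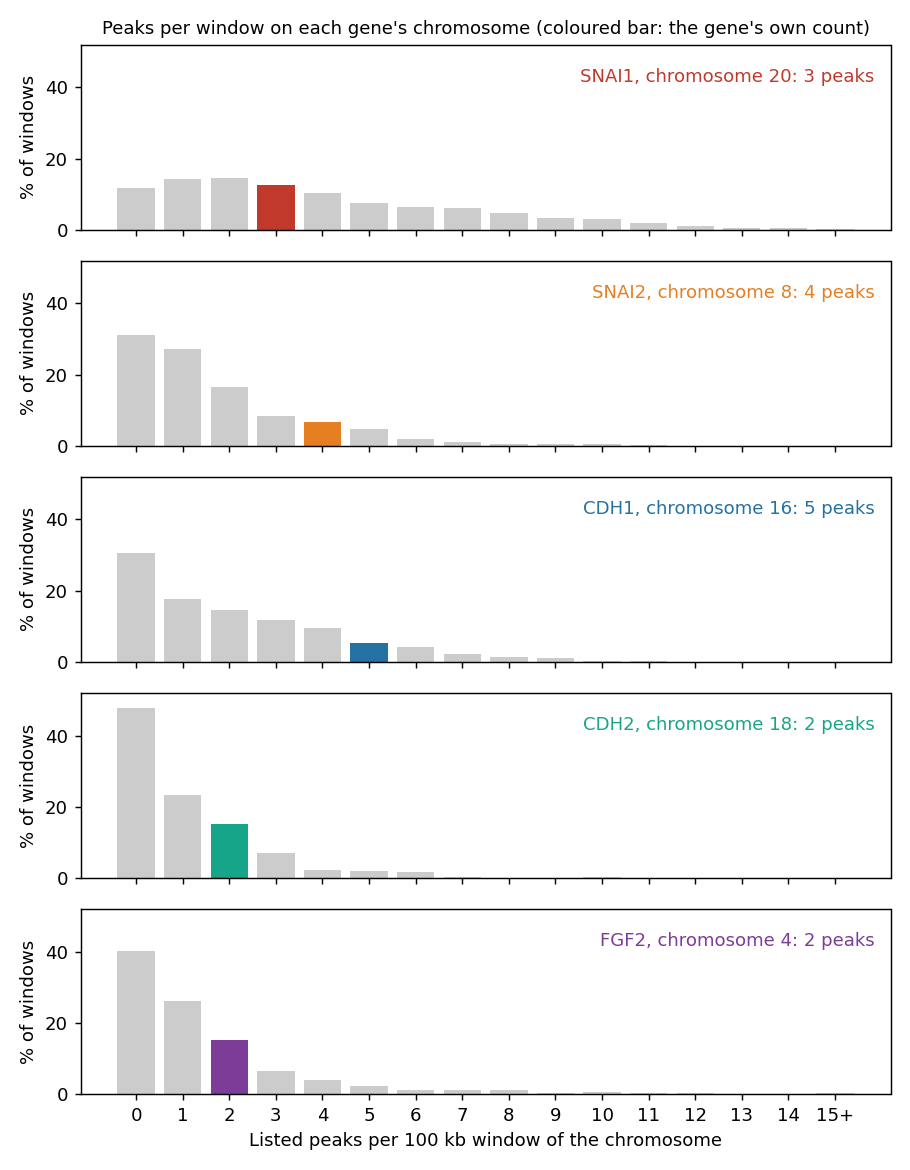
Share of the 100001 bp windows of each chromosome (y axis, percent) by the number of listed peaks they hold (x axis), with the bar of the gene's own count in colour. The counts at CDH1 (5), SNAI2 (4), SNAI1 (3), CDH2 (2) and FGF2 (2) all sit right of the tallest bar of their chromosome. That bar is at 2 peaks for chromosome 20 and at 0 for the others. The count of SNAI1 sits in the middle of its distribution.

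CDH1, which encodes E-cadherin, had the most peaks of the 5 loci and none near its TSS. Its 5 peaks lay 41350, 33201, 29430 and 18149 bp upstream and 22826 bp downstream. The nearest one, from 68752802 to 68753046 on chromosome 16 of hg19, had 5 reads (interval 1.62 to 11.7) against a background of 1.13 and a −log10 p of 2.22. The strongest one, from 68737806 to 68737994, had 7 reads (interval 2.81 to 14.4), or 6.05 after scaling, against a background of 1.00, with a fold enrichment of 3.52 and a −log10 p of 4.08. It stood at place 56 of the 1992 listed peaks of the chromosome. The other 3 had 4 or 5 reads and a −log10 p between 2.11 and 2.94.

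Windows on chromosome 16 held 2.21 peaks on average, and 15.4% of them held at least 5, so a count like that of CDH1 was met in 139 of 902 windows. Within 5 Mb of the TSS the average was 2.13, and 10.0% held at least 5. The region was also denser than the chromosome, with 32.0 peaks per Mb within 1 Mb of the TSS against 22.1 per Mb. On GRCh38 the next protein-coding gene upstream is CDH3, which encodes P-cadherin. Whether the 4 upstream peaks lie in CDH3 was not determined, since gene positions on hg19 were not used here. A peak was at least as near as 18149 bp for 44.3% of the window centres of the chromosome.

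CDH2, which encodes N-cadherin, had 2 peaks, both upstream. The nearer one, from 25776513 to 25776673 on chromosome 18 of hg19, was 19068 bp from the TSS, with 4 reads (interval 1.09 to 10.2) at the genome-wide background of 0.763 and a −log10 p of 2.11. The stronger one lay 47178 bp upstream, close to the border of the locus, with 6 reads (interval 2.20 to 13.1), a background of 1.00 and a −log10 p of 3.23. Another peak, at 62324 bp upstream, fell outside and had 6 reads and a −log10 p of 3.72. No peak was listed in the 100 kb downstream of the TSS.

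Chromosome 18 had the lowest peak density of the 5 chromosomes, with 11.1 per Mb, and the neighbourhood of CDH2 was sparser still, with 6.0 per Mb within 1 Mb. Its windows held 1.10 peaks on average, and 28.9% held at least 2, while within 5 Mb of the TSS the average was 0.75 and 20.0% held at least 2. A window with a peak of −log10 p of at least 3 was less common here, at 8.99% of windows, than on chromosomes 16 (27.3%), 20 (47.3%), 8 (20.9%) and 4 (19.2%). The loci of CDH1, CDH2, SNAI1 and SNAI2 each held at least 1 peak of that strength, and the locus of FGF2 held 0. Both ends of this count hung on the settings. With the MACS genome size for human, the peak upstream of FGF2 would reach a −log10 p of up to 3.65 in place of 2.94. Other peaks at the genome-wide background could rise too, and the shares of windows were not recomputed at that genome size. With 1 read fewer the strongest peak of CDH2 would fall to 2.44.

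FGF2 had 2 peaks, 1 on each side of its TSS. The nearer one, from 123733850 to 123734058 on chromosome 4 of hg19, was 13805 bp upstream, with 5 reads (interval 1.62 to 11.7), a fold enrichment of 3.02 and a −log10 p of 2.94. The other lay 19876 bp downstream with 3 reads (interval 0.619 to 8.77) and a −log10 p of 1.37. The authors' p cutoff of 0.05 corresponds to 1.30, so this was a peak at the edge of the list, and 63632 of the 64251 peaks were at least as strong. Both sat at the genome-wide background of 0.763. Windows on chromosome 4 held 1.57 peaks on average, and 33.8% held at least 2. Within 5 Mb of the TSS the average was 0.66, and 20.0% of windows held at least 2. Peaks were also sparser close by, with 8.5 per Mb within 1 Mb against 15.7 per Mb over the chromosome. No further peak was listed within 100 kb.

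**Figure D3:**
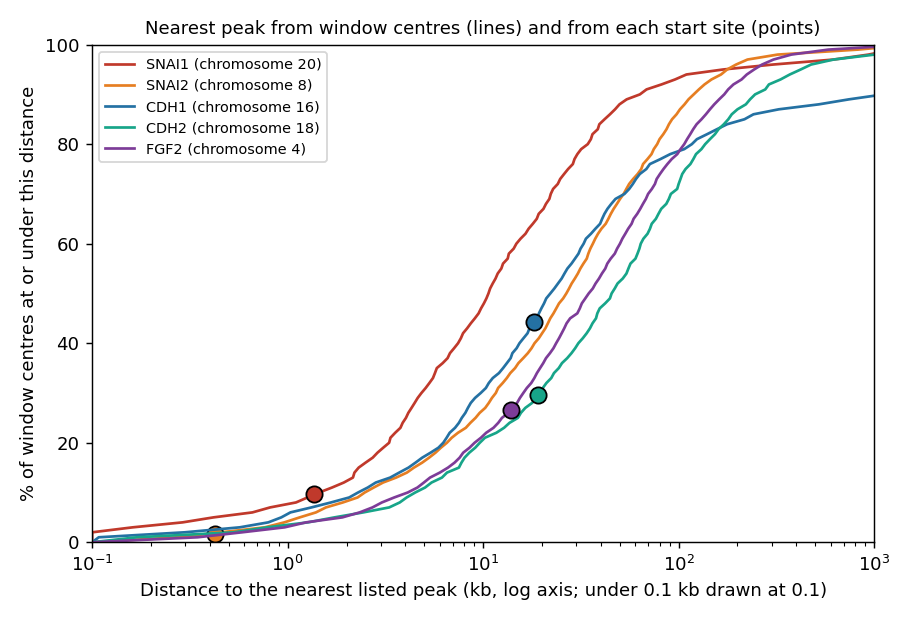
Lines give, for each chromosome, the percentage of window centres (y axis) whose nearest listed peak is at or under a distance (x axis, kb, log scale), and points mark the TSSs. The points of SNAI2 (424 bp) and SNAI1 (1370 bp) lie at the low end of their lines, while those of CDH1, CDH2 and FGF2 lie in the body of theirs.

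Ordered by the distance to the nearest peak, the genes were SNAI2 (424 bp), SNAI1 (1370 bp), FGF2 (13805 bp), CDH1 (18149 bp) and CDH2 (19068 bp). A peak was at least as near for 1.71% of the window centres of chromosome 8 in the case of SNAI2, 9.71% on chromosome 20 for SNAI1, 26.5% on chromosome 4 for FGF2 and 29.5% on chromosome 18 for CDH2. The distances of the last 3 genes were thus within the common range of their chromosomes. Around SNAI2 and SNAI1 peaks were denser than over the chromosome. Within 1 Mb of the TSS there were 28.0 per Mb against 17.6 for SNAI2, and 60.5 against 39.7 for SNAI1. The share of window centres near these 2 genes with a peak as near was not determined. The median distance from a window centre was 26635 bp on chromosome 8 and 10644 bp on chromosome 20.

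By number, the 5 loci together held 16 peaks, against a sum of 10.6 for the average windows of the same chromosomes. All but SNAI1 had more peaks than the average window. Windows with at least as many peaks as the gene were common, however. They made up 15.4% for CDH1, 28.9% for CDH2, 16.8% for SNAI2, 33.8% for FGF2 and 59.2% for SNAI1. Of the 16 peaks, 12 lay upstream of the TSS and 4 in the transcribed direction. The split to be expected at other start sites was not determined. The background was the genome-wide level for 7 of them, 1 input read over the summit for 5, and the input in a wider window for 4, which includes all 3 peaks of SNAI1. No 2 loci are replicates of each other, and all 16 values rest on the same pair of libraries.

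**Figure D4:**
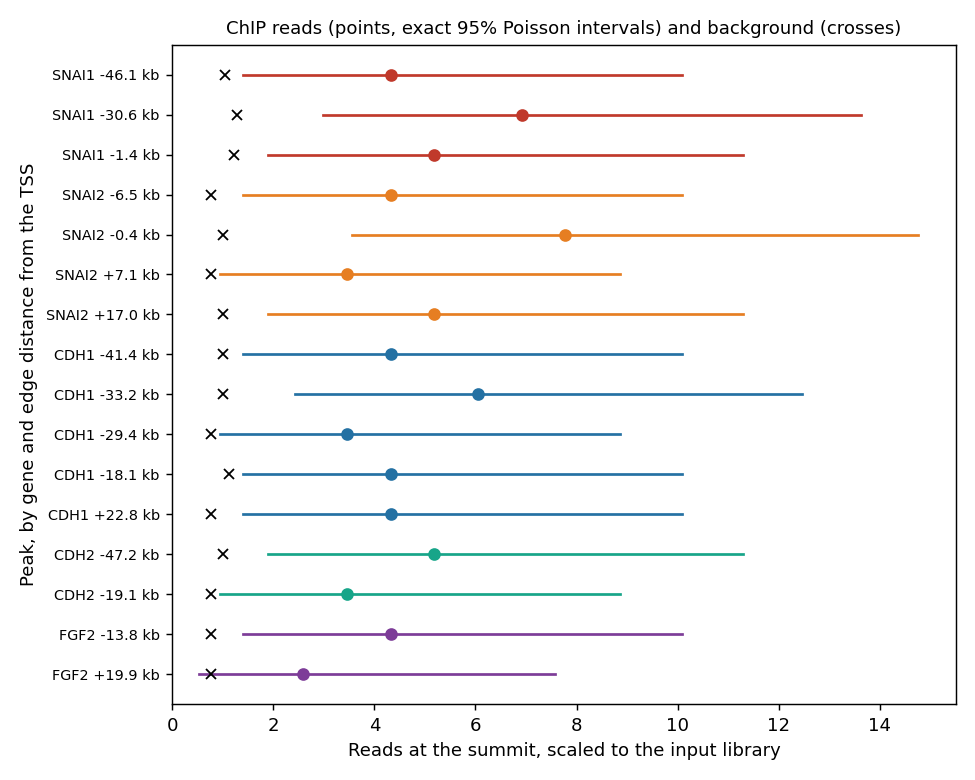
ChIP reads at the summit of the 16 peaks, scaled to the input library (points, x axis), with exact 95% Poisson intervals (lines, counting error only) and the background of each peak (crosses). The intervals overlap widely between genes, and only the FGF2 peak at +19.9 kb has an interval that reaches its background. All 16 peaks had already passed the MACS p cutoff against this background.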

How the data were processed

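The authors ran MACS 2.1.2 (single-end) on duplicate-marked alignments of the ChIP and input libraries to make the peak table. The submitters' processing notes name CASAVA 1.4, Bowtie2 2.0, Picard 2.19.0 and the build hg19. Per the file header, the p cutoff was 0.05, the effective genome size 1870000000 bp (the mouse preset of MACS, applied to human reads), the tag size 145 bp and the fragment length 161 bp. In the deposited table, the pileup is a signal of extended ChIP reads scaled to the input, the fold enrichment is a ratio, and the p and q values are given as −log10. The header says that q was not calculated, but the deposited column holds values of 0 and above, which were used as they stand.

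Reads were recovered as the pileup divided by the scale factor of 0.864, and were whole (within 0.02) for 100% of peaks. The background followed from reads and fold enrichment, and the recomputed Poisson −log10 p differed from the listed one by at most 5.26e-05. The genome-wide background was 0.763. Windows of 100001 and 10001 bp were tiled from the first to the last listed peak of a chromosome, assembly gaps included, and a peak counted with at least 1 bp of overlap. All 5 genes were named, each with its nearest and its strongest peak. The windows give a base rate and no p-value was computed from them. The members and lists were chosen with earlier results of these data known. The tiling and distance code was tested on simulated data. Other EMT genes were not run, since an annotation of hg19 was not used here, and promoters of CDH1, SNAI1 and SNAI2 are not shown. Tables were handled with pandas 2.3.3 and numpy 2.4.6 in Python 3.11.15, intervals came from scipy 1.17.1, and plots from matplotlib 3.10.9.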

Additional observations from a re-analysis of the deposited data

How the results depend on the processing

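The counts of peaks within 50 kb (CDH1 5, CDH2 2, SNAI1 3, SNAI2 4, FGF2 2) depended on the threshold of the list. They became 1, 1, 1, 2 and 0 when −log10 p had to reach 3, and 0 for all 5 genes with a −log10 q above 0. A fold enrichment of at least 3 left 2 at CDH1 and 1 each at CDH2, SNAI1 and FGF2, and 3 at SNAI2. Within 10 kb on each side 0 remained at CDH1, CDH2 and FGF2, 1 at SNAI1 and 3 at SNAI2, and within 5 kb the counts were 0, 0, 1, 1 and 0 (CDH1, CDH2, SNAI1, SNAI2 and FGF2). Within 100 kb on each side, an alternative chosen after seeing the data, there were 11, 3, 5, 9 and 2. Requiring the summit inside changed no count. The nearest peak with a −log10 p of at least 3 was 33201 bp from CDH1, 47178 bp from CDH2, 30555 bp from SNAI1 and 212119 bp from FGF2, and was the same peak, at 424 bp, for SNAI2. The nearest with a −log10 q above 0 was 15296625, 51621167, 1177051, 21822633 and 66895465 bp away for CDH1, CDH2, SNAI1, SNAI2 and FGF2.

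The share of windows with a listed peak within 5 Mb of the TSS was 77.0% for CDH1, 48.0% for CDH2, 97.0% for SNAI1 and 43.0% for FGF2, and 67.0% for SNAI2, which lay inside the interval of the whole chromosome. Shifted tiles kept the share with any listed peak inside its binomial interval on all 5 chromosomes. When only peaks of −log10 p 3 or more were counted, the shares over the chromosomes of CDH1, CDH2, SNAI1, SNAI2 and FGF2 were 27.3%, 8.99%, 47.3%, 20.9% and 19.2%. With 1 read fewer, the −log10 p of the strongest peak would be 3.23 at CDH1, 2.44 at CDH2, 3.45 at SNAI1 (unchanged, since MACS uses whole scaled reads), 4.08 at SNAI2 and 2.11 at FGF2, which takes CDH2 below 3. With the human genome size the FGF2 peak would reach at most 3.65, above 3, and the strongest peaks of the other 4 genes kept their values, since their backgrounds lay above the genome-wide level. The causes were not tested. No peak of these loci rests on more than 9 reads and the list holds none under 3, so weaker enrichment near these genes was not detectable at this depth. Further peaks that might pass under the human genome size were not analysed here, and the shares of windows were not recomputed under it. No paired analysis was possible because ChIP and input consist of a single library each.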
